A study of Mus musculus with 8 samples.

Results

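Macroautophagy is the pathway by which a cell wraps cytoplasm, protein aggregates or whole organelles in a double membrane and delivers them to lysosomes. It starts with the ULK1 kinase complex and the class III phosphatidylinositol 3-kinase complex, proceeds through 2 ubiquitin-like conjugation systems that attach ATG8 proteins (the LC3 and GABARAP families) to the growing membrane, and selects its load through receptors that bind both the cargo and ATG8. In skeletal muscle the pathway is active during fasting and in several forms of wasting, and mouse muscle that lacks it loses mass, so both too much and too little of it are known to be harmful there. In all, 40 genes of this machinery are described here in the quadriceps of mice with and without a tumor. They were chosen by gene symbol, as known components of 5 successive steps, from the 53819 symbols of the gene table: 5 genes of initiation, 11 of nucleation and membrane supply, 15 of conjugation and the ATG8 proteins, 5 soluble cargo receptors and 4 mitophagy genes. The choice was made with earlier results of these data known.

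Tumor-bearing mice were wild-type C57BL/6J animals, 8 weeks old at the start, that received 500000 cells of B0092, a head and neck squamous cell carcinoma line, under the skin of the nape. Control mice of the same strain, genotype and starting age received the PBS vehicle. Both groups were killed at day 36, when weight loss reached about 10%, and RNA from the quadriceps of 4 mice per group was sequenced. The study asked what this tumor does to muscle as a model of cachexia, the wasting that accompanies cancer. A single tumor line was used, one muscle was sampled at one time, and the sources used here do not give the sex of the mice.

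The 8 libraries held between 28436254 and 36139478 estimated counts, and 14070 genes were tested. Whole quadriceps was measured, so for any gene fewer cells of a type and less RNA per cell cannot be told apart. Fast-fibre markers were abundant in the 8 libraries, with summed levels of 83540 to 184777 CPM (counts per 1000000 counts) in tumor mice and 112004 to 179713 CPM in controls. The libraries differed in fibre makeup within each group: the log2 ratio of Myh4, the fast 2B myosin, to the summed Myh1, Myh2 and Myh7 was 6.51, 2.03, 6.00 and 4.32 in the tumor libraries 1 to 4 and 2.95, 4.29, 5.595 and 0.87 in the control libraries 1 to 4. Of 8 genes listed as fast-fibre markers 1 was called lower in tumor mice, the actin gene Acta1 (log2 fold change -1.24, adjusted p 0.0368, edgeR). Myh4 was not called (log2 fold change 0.23, adjusted p 0.693, edgeR). Of 6 slow or oxidative fibre markers 5 were called lower, with summed levels of 31.4 to 1147 CPM in tumor mice and 56.5 to 9622 CPM in controls. All 5 overlapped between the groups and were highest in control 4. Myh7 had 119, 16.4, 1.48 and 2164 CPM in controls 1 to 4 and 0.115 to 4.09 CPM in tumor mice. Of 5 endothelial markers 3 were lower, with summed levels of 60.9 to 107 CPM in tumor mice and 121 to 184 CPM in controls. None of 6 macrophage markers was called by edgeR (1, Cd68, had an unadjusted p under 0.05), with summed levels of 23.4 to 111 CPM in tumor mice and 35.5 to 59.2 CPM in controls. Of 4 neutrophil markers 1 was tested, S100a8, and it was called higher (adjusted p 0.0440), at 1.88, 0.909, 0.386 and 2.04 CPM in tumor mice and 0, 0, 0.405 and 0.109 CPM in controls. S100a9, below the count filter, had 0.201 to 1.71 CPM in tumor mice and 0.0992 to 0.181 CPM in controls, and Ly6g was at 0 in all 8 libraries. Of 7 squamous markers 6, among them Krt5 and Krt14, were at 0 in all 8 libraries; the other, Trp63, was higher, at 15.7 to 36.2 CPM in tumor mice and 6.27 to 9.40 CPM in controls. None of 4 adipocyte markers was called by edgeR, with summed levels of 8.58 to 230 CPM in tumor mice and 4.17 to 202 CPM in controls. None of 4 fibro-adipogenic markers was called either. Of these Col1a1 lay lower without overlap, at 5.42 to 56.1 CPM in tumor mice and 73.0 to 126 CPM in controls (adjusted p 0.0590). The part of the endothelial, neutrophil, adipocyte and fibro-adipogenic markers in the results below was not tested. A fit with the fibre ratio as a covariate was also made, and the calls it changed are given with their values.

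All 40 autophagy genes were detected well enough to be tested. With a false discovery rate threshold of 0.05 over all genes tested (quasi-likelihood F test of edgeR), 16 of them were higher in tumor mice and 2 were lower, and 22 were not called. Among all genes tested, 11.0% were higher and 8.73% were lower, 19.8% in either direction, so the higher share of the autophagy genes, 40%, was above the background and the lower share, 5%, was below it. Because the 40 were chosen with earlier results of these data known, these shares are descriptions and not a test of enrichment. Of all calls 55.8% were higher; with upper-quartile scaling this share was 43.0%, and 13 autophagy genes were then higher and 2 lower. Their median log2 fold change was 0.35, against 0.003 over all genes tested, and 30 of the 40 fold changes were positive. The range ran from -0.75 for Atg10 to 0.98 for Sqstm1, so none of the 40 reached a log2 fold change of 1. For 16 genes every tumor library lay above every control library and for 3 every tumor library lay below, against 13.5% and 11.5% of all genes tested. Together the 40 genes took 0.450%, 0.523%, 0.527% and 0.536% of the unscaled counts in the tumor libraries. In the control libraries they took 0.326%, 0.342%, 0.327% and 0.337%, and the groups did not overlap. Tumor 4, the highest here, had the largest scaling factor of the 8 libraries, 1.22. Sqstm1 and Pink1, the genes with the most counts, weigh most in these shares, and Pink1 was not called.

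**Figure D1:**
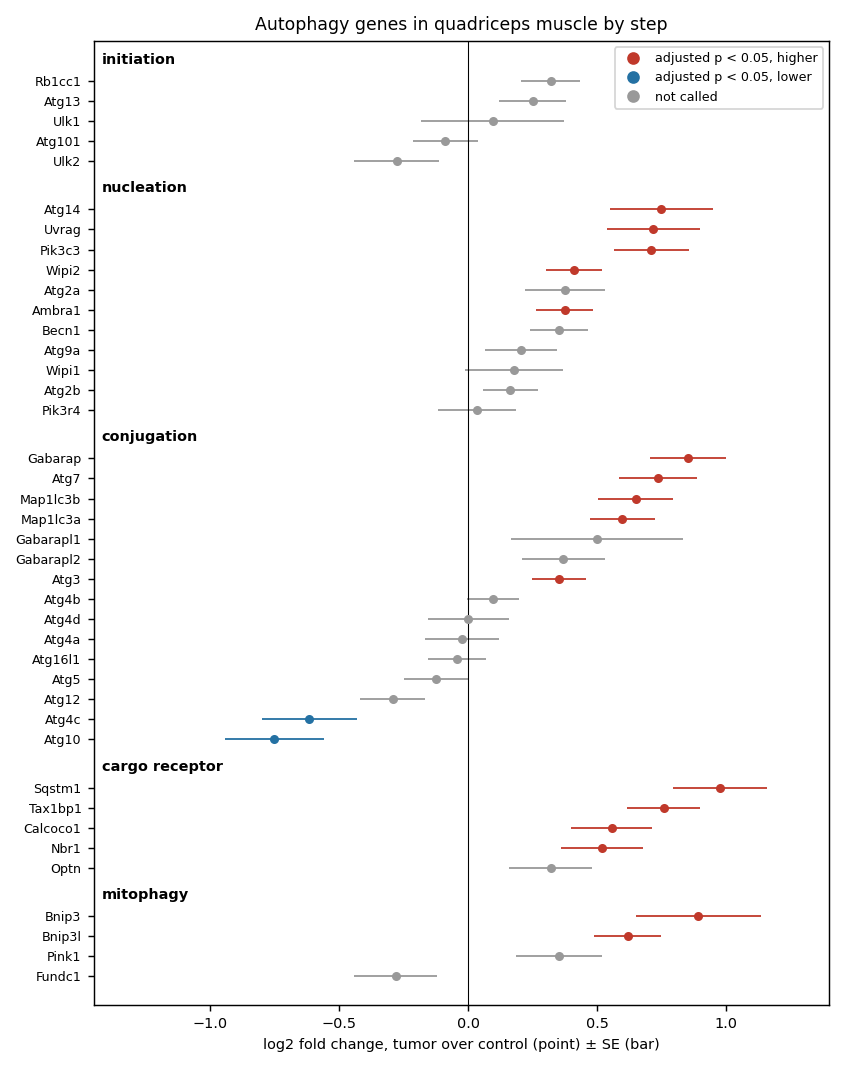
Log2 fold change of each of the 40 autophagy genes, tumor over control, ordered by step, with bars of 1 standard error from edgeR and colour marking the call. The 16 genes called higher lie between 0.35 and 0.98 and the 2 called lower, Atg10 and Atg4c, at -0.75 and -0.62.

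The number called changed when single libraries were left out. It was 6 higher and 0 lower without control 1, 7 and 0 without control 2, 8 and 1 without control 3, 7 and 0 without tumor 3 and 10 and 2 without tumor 2, where 4.40%, 5.30%, 6.99%, 4.94% and 9.27% of all genes were called higher. The median of the 40 stayed between 0.222 and 0.355 when single libraries were left out, with the lowest value without tumor 2. In all 18 alternative analyses 6 genes kept their call: Pik3c3, Atg7, Map1lc3a, Gabarap, Sqstm1 and Tax1bp1.

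Promoter sequence was looked at as a feature that owes nothing to the expression values, though the matches are also listed by call. Transcription factors of the TFEB family bind the E-box CACGTG and its longer form TCACGTGA, the CLEAR core, and FOXO factors bind the sequence GTAAACA, and both families are known regulators of autophagy genes. RefSeq promoters of 300 bases (250 before to 50 after the start, build GRCm38.p6) were found for 33 of the 40 genes, 37 promoters in all; Rb1cc1, Becn1, Pik3c3, Atg12, Atg16l1, Map1lc3a and Bnip3l had no entry. CACGTG stood in 5 of these 37 promoters (13.5%), against 2349 of all 32851 mouse promoters in the table (7.15%). TCACGTGA, every match of which also counts as a CACGTG match, stood in 1 of 37 (2.7%) against 320 of 32851 (0.974%). GTAAACA, read on both strands like the other motifs, stood in 0 of 37, against 1199 of 32851 (3.65%). The E-box lay in the promoters of Atg3, Atg7, Atg14 and Bnip3, which were among the 13 genes called higher that had a promoter entry, and of Atg5, 1 of the 20 other genes with an entry. The windows of 100 bases that hold these matches are shown because they let the 4 higher genes be set beside Atg5, which carries the same letters and was not called. Each is written 5′ to 3′ along the gene's own strand, with capitals marking CACGTG, or TCACGTGA in the second match of Atg3. These matches are descriptions of the letters and not measured binding. With only 5 genes holding a match, neither the difference from all promoters nor a relation of the matches to the calls was tested. Which factor, if any, binds them was not tested either.
Atg14: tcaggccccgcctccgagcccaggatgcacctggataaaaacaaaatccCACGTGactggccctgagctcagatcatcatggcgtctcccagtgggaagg
Atg3: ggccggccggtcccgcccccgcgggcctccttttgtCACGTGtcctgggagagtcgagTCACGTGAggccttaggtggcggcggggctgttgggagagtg
Atg5: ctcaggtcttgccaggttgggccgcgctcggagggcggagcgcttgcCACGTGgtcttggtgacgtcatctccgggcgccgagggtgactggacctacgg
Atg7: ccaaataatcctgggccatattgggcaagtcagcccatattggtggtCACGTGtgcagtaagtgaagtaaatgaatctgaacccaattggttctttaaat
Bnip3: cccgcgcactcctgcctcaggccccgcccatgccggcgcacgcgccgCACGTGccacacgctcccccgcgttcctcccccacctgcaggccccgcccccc
The windows lie at chr14:47568385-47568484 on the minus strand for Atg14, chr16:45158699-45158798 on the plus strand for Atg3, chr10:44268278-44268377 on the plus strand for Atg5, chr6:114670917-114671016 on the plus strand for Atg7 and chr7:138909562-138909661 on the minus strand for Bnip3. With the annotated start base as position 0, the first base of CACGTG was at position -1 in Atg14, -94 and -71 in Atg3, -14 in Atg5, -132 in Atg7 and -108 in Bnip3.

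The counts by step below are descriptions, to be set beside the 11.0% higher and 8.73% lower among all genes tested. Differences between steps were not tested. None of the 5 initiation genes was called by edgeR, against 19.8% of all genes in either direction. Of the 5, Rb1cc1 had an unadjusted p under 0.05. Ulk1, the kinase that starts autophagosome formation, had 159.9, 175, 157 and 62.6 CPM in the tumor libraries 1 to 4 against 111, 124, 138 and 145 CPM in the control libraries 1 to 4. Tumor libraries 1 to 3 lay above every control library and tumor 4 below all of them, and the log2 fold change was 0.09 ± 0.28 (SE, n = 4 per group, adjusted p 0.839, edgeR). Its paralogue Ulk2 had 147, 96.9, 113 and 88.3 CPM in tumor mice and 130.3, 145, 144 and 121 CPM in controls, with a log2 fold change of -0.28 ± 0.17 (adjusted p 0.266). Rb1cc1 encodes FIP200, the scaffold of the ULK1 complex. It had 113, 144, 129.7 and 120.4 CPM in tumor mice against 94.7, 101, 108 and 102 CPM in controls. Its groups did not overlap, yet at a log2 fold change of 0.32 ± 0.12 it missed the threshold (adjusted p 0.0779). DESeq2 called it (adjusted p 0.0421), as did voom with quality weights (0.0183). Atg13 and Atg101, the adaptor pair of the same complex, had log2 fold changes of 0.25 ± 0.13 and -0.09 ± 0.13 (adjusted p 0.201 and 0.657), and voom with quality weights called Atg13 (0.0210).

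Of the 11 nucleation and membrane supply genes 5 (45.5%) rose in tumor mice, against 11.0% of all genes tested, and none fell. All 11 log2 fold changes were positive, with a median of 0.37. Of the 5, 4 belong to the class III phosphatidylinositol 3-kinase complex, which marks the site of membrane growth with the lipid PI3P. Pik3c3 encodes VPS34, the catalytic subunit of that complex. It had 21.1, 23.4, 21.04 and 16.8 CPM in tumor mice against 11.4, 10.9, 13.1 and 14.9 CPM in controls, a 1.64-fold rise (log2 0.71 ± 0.15, adjusted p 0.0113). Atg14, the subunit that directs the complex to autophagosome formation, had 14.2, 14.3, 11.5 and 10.9 CPM in tumor mice and 6.82, 6.05, 6.71 and 10.7 CPM in controls. It rose 1.68-fold (log2 0.75 ± 0.20, adjusted p 0.0286), and control 4 nearly reached the lowest tumor library. The subunit that replaces ATG14 in the endosomal form of the complex is UVRAG. Uvrag had 14.6, 23.6, 22.9 and 14.9 CPM in tumor mice against 11.0, 11.3, 11.5 and 12.2 CPM in controls, a 1.64-fold rise (log2 0.72 ± 0.18, adjusted p 0.0237) with tumor libraries 2 and 3 well above the rest.

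The remaining genes of the complex had smaller fold changes. Ambra1, a Beclin 1 partner, had 34.3, 35.3, 34.7 and 28.1 CPM in tumor mice and 25.7, 27.0, 26.0 and 23.4 CPM in controls, a 1.30-fold rise (log2 0.37 ± 0.11, adjusted p 0.0432). Becn1, which encodes Beclin 1 itself, had 72.3, 59.9, 72.6 and 67.9 CPM in tumor mice against 57.9, 47.3, 53.7 and 54.7 CPM in controls. Its tumor libraries were all above its control libraries, but the log2 fold change of 0.35 ± 0.11 did not pass (adjusted p 0.0539, against 0.0435 without tumor 2, 0.0225 by DESeq2 and 0.0123 by voom with quality weights). Pik3r4, the regulatory subunit VPS15, had 13.1 ± 2.25 CPM in tumor mice and 12.8 ± 1.38 CPM in controls (SD, n = 4 each, log2 fold change 0.03 ± 0.15, adjusted p 0.901). Its groups overlapped throughout, and differences between the subunits were not tested.

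Among the genes that supply membrane and read PI3P, 1 of 5 rose, Wipi2. WIPI2 binds PI3P and recruits the ATG16L1 complex. Wipi2 had 48.0, 53.1, 51.2 and 47.1 CPM in tumor mice against 32.7, 38.5, 38.0 and 40.9 CPM in controls, a 1.33-fold rise (log2 0.41 ± 0.11, adjusted p 0.0275). Its relative Wipi1 had 68.4, 100.3, 67.6 and 70.2 CPM in tumor mice and 57.9, 55.1, 68.1 and 90.0 CPM in controls, with a log2 fold change of 0.18 ± 0.19 (adjusted p 0.547). The lipid transfer proteins ATG2A and ATG2B feed lipid into the growing membrane. Atg2a had 32.4, 48.1, 35.0 and 39.0 CPM in tumor mice against 30.1, 27.5, 25.8 and 35.7 CPM in controls (log2 fold change 0.38 ± 0.15, adjusted p 0.114), and with the fibre ratio as a covariate it was called at a log2 fold change of 0.51 ± 0.10 (adjusted p 0.00773). Atg2b had 31.0, 37.4, 29.9 and 34.2 CPM in tumor mice and 28.6, 30.3, 29.4 and 30.0 CPM in controls (log2 fold change 0.16 ± 0.11, adjusted p 0.302). Atg9a, a lipid scramblase that travels on small vesicles, averaged 173 ± 26.8 CPM in tumor mice and 150 ± 13.0 CPM in controls (adjusted p 0.327).

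Several nucleation calls were lost when 1 library was left out, while the log2 fold changes stayed positive. They ran from 0.656 to 0.963 for Atg14 and from 0.566 to 0.827 for Uvrag. For Wipi2 they ran from 0.348 to 0.454 and for Ambra1 from 0.311 to 0.436. The Atg14 call was lost without any one of tumor 1, 2 or 3 or control 1, 2 or 3 (adjusted p 0.0573 to 0.0904). The Uvrag call was lost without tumor 3 or control 1, 2 or 3 (0.0552 to 0.0766), and the Wipi2 call without tumor 2 or 3 or control 1, 2 or 3 (0.0576 to 0.0944). The Ambra1 call was kept only when the library left out was tumor 4 (0.0729 to 0.118 without any other). With the fibre ratio as a covariate Ambra1 had a log2 fold change of 0.35 ± 0.12, close to the 0.37 without it, and was not called (adjusted p 0.0636).

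**Figure D2:**
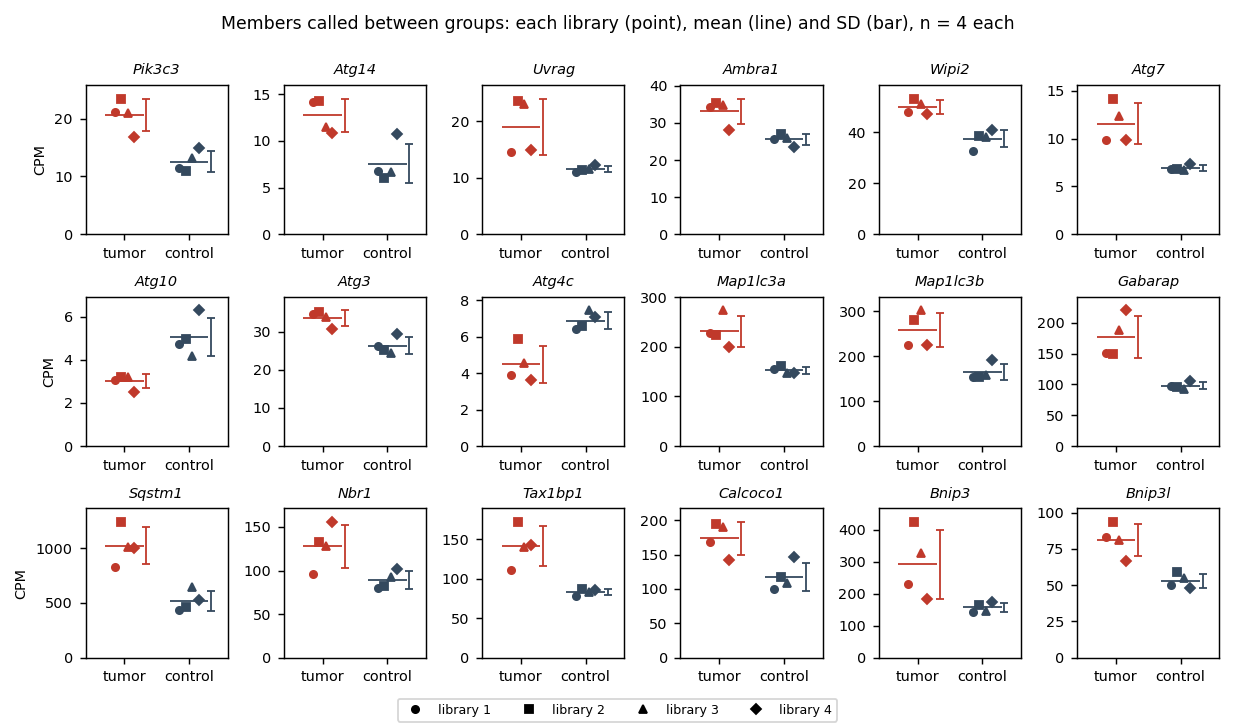
Level in CPM of the members called higher or lower, one point per library, tumor libraries left of control libraries, with the group mean and SD, each panel with its own axis from 0. Sqstm1 lies between 827 and 1239 CPM in tumor mice and between 440 and 644 CPM in controls, while Atg10 lies between 2.53 and 3.21 CPM in tumor mice and between 4.196 and 6.30 CPM in controls.

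Conjugation held calls in both directions. Of its 15 genes 5 (33.3%) rose and 2 (13.3%) fell, against 11.0% and 8.73% of all genes tested. With 2 genes, the share that fell was near that background. The median log2 fold change was 0.10. ATG7 is the E1-like enzyme that activates both ATG12 and the ATG8 proteins. Atg7 had 9.81, 14.2, 12.4 and 9.82 CPM in tumor mice against 6.82, 6.85, 6.68 and 7.39 CPM in controls, a 1.66-fold rise (log2 0.73 ± 0.15, adjusted p 0.0114) with no overlap. ATG3 is the E2-like enzyme that passes ATG8 proteins to the membrane lipid. Atg3 had 34.6, 35.2, 33.9 and 30.7 CPM in tumor mice against 26.3, 25.3, 24.3 and 29.4 CPM in controls, a 1.28-fold rise (log2 0.35 ± 0.10, adjusted p 0.0432). This call was lost without tumor 1, 2 or 3 or control 1, 2 or 3 (adjusted p 0.0707 to 0.120).

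ATG10 is the E2-like enzyme of the other branch, which joins ATG12 to ATG5. Atg10 had 3.06, 3.21, 3.21 and 2.53 CPM in tumor mice against 4.73, 5.00, 4.196 and 6.30 CPM in controls and was 1.68-fold lower (log2 -0.75 ± 0.19, adjusted p 0.0263), with every tumor library below every control library. The call was lost without tumor 3 or control 1, 2 or 4 (adjusted p 0.0590 to 0.0675). Atg12, the ubiquitin-like protein that this enzyme handles, had 24.6, 25.0, 18.7 and 19.6 CPM in tumor mice and 27.2, 26.4, 28.4 and 25.7 CPM in controls. It too lay below the controls in each tumor library, but the log2 fold change of -0.29 ± 0.13 did not pass (adjusted p 0.127). Atg5, which receives ATG12, and Atg16l1, which completes the complex, had log2 fold changes of -0.13 ± 0.12 and -0.04 ± 0.11 (adjusted p 0.505 and 0.819).

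The 4 ATG4 proteases trim new ATG8 proteins and release them from membranes, and here 1 of the 4 fell. Atg4c had 3.88, 5.88, 4.56 and 3.62 CPM in tumor mice against 6.41, 6.58, 7.44 and 7.07 CPM in controls and was 1.53-fold lower (log2 -0.62 ± 0.18, adjusted p 0.0437). The call was kept only when the library left out was tumor 2 (0.0781 to 0.104 without any other). With the fibre ratio as a covariate the log2 fold change was -0.57 ± 0.19 and was not called (adjusted p 0.0630). Atg4d had 46.9, 35.3, 48.1 and 59.3 CPM in tumor mice and 52.3, 49.4, 44.8 and 43.2 CPM in controls, and Atg4b had 17.8, 19.2, 17.3 and 18.3 CPM in tumor mice and 17.1, 15.7, 18.1 and 17.1 CPM in controls. Atg4a had 27.3, 25.6, 25.2 and 29.7 CPM in tumor mice and 27.6, 28.5, 32.8 and 20.8 CPM in controls. All 3 overlapped between the groups, with log2 fold changes of 0.00 ± 0.16 for Atg4d (adjusted p 1), 0.10 ± 0.10 for Atg4b (0.536) and -0.02 ± 0.14 for Atg4a (0.922).

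Of the 5 ATG8 genes, whose products coat the autophagosome membrane and bind the receptors, 3 rose. Gabarap had 151, 149, 188 and 220.1 CPM in tumor mice against 97.5, 96.3, 92.3 and 106 CPM in controls, a 1.81-fold rise (log2 0.85 ± 0.15, adjusted p 0.00613). The lowest tumor library was well above the highest control library. Map1lc3a, which encodes LC3A, had 228, 224, 273 and 199 CPM in tumor mice against 155, 161, 147 and 147 CPM in controls, a 1.51-fold rise (log2 0.60 ± 0.13, adjusted p 0.0123). Map1lc3b, which encodes LC3B, the usual marker protein of autophagosomes, had 225, 280.1, 302 and 225 CPM in tumor mice against 154, 154, 158 and 192 CPM in controls. It rose 1.57-fold (log2 0.65 ± 0.15, adjusted p 0.0154), with control 4 closest to the tumor libraries, and the call was lost without tumor 3 or control 1 or 2 (0.0552 to 0.0622).

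Gabarapl1 and Gabarapl2 were not called. Gabarapl1 had 58.1, 105, 68.2 and 46.4 CPM in tumor mice against 38.1, 36.1, 36.8 and 85.5 CPM in controls. Control 4 lay above 3 of the 4 tumor libraries, and the log2 fold change was 0.50 ± 0.33 (adjusted p 0.318). Without control 4 it was 0.91 and called (adjusted p 0.0422), and with the fibre ratio as a covariate 0.82 ± 0.24 (adjusted p 0.0404). Gabarapl2 had 53.2, 40.0, 54.1 and 64.7 CPM in tumor mice and 46.5, 41.6, 42.6 and 33.4 CPM in controls (log2 fold change 0.37 ± 0.16, adjusted p 0.136).

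Levels between genes were compared per kilobase of all annotated exon bases, which counts exons whether or not muscle uses them: 1181 bases for Map1lc3a but 7517 for Map1lc3b. On that scale Map1lc3a had the highest mean of the 5 ATG8 genes in both groups, while without division by length Map1lc3b was higher, at 258 CPM against 231 CPM for Map1lc3a in tumor mice and 165 CPM against 153 CPM in controls. Map1lc3a had 196 ± 26.1 CPM per kb in tumor mice and 129 ± 5.71 in controls, and Gabarap had 95.9 ± 18.4 in tumor mice and 53.1 ± 3.02 in controls (SD, n = 4 each). Map1lc3b had 34.3 ± 5.17 CPM per kb in tumor mice and 21.9 ± 2.47 in controls. Gabarapl1 had 34.5 ± 12.6 CPM per kb in tumor mice and 24.4 ± 12.0 in controls, so the order of this pair was not separated by their spread. Gabarapl2 had the lowest mean, at 22.8 ± 4.34 CPM per kb in tumor mice and 17.6 ± 2.36 in controls.

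**Figure D3:**
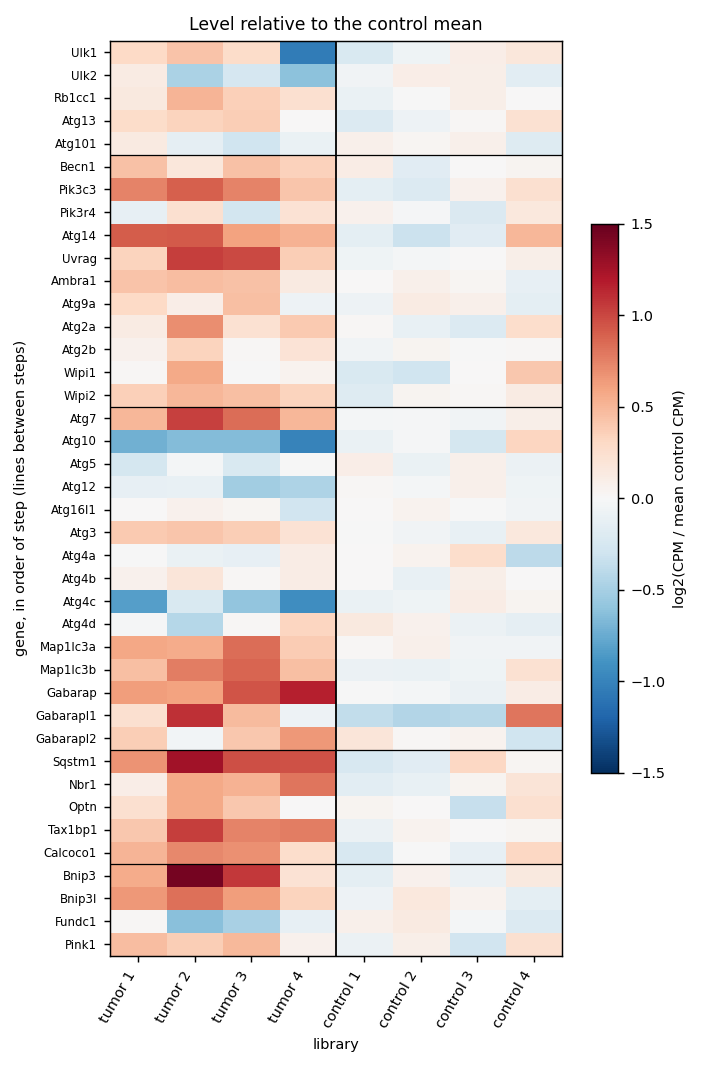
Level of each of the 40 autophagy genes in each library, as the log2 of its CPM over the control mean, tumor libraries left of control libraries and lines between the 5 steps. Sqstm1, Tax1bp1 and Gabarap are red in all 4 tumor libraries and Atg10 and Atg4c blue, while control 4 is red in Gabarapl1, where it had 85.5 CPM.

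Of the 5 soluble cargo receptors 4 (80%) rose, against 11.0% of all genes tested. The median over the 5 was 0.56 on the log2 scale. Sqstm1 encodes p62, which gathers ubiquitinated protein and is itself degraded by autophagy. It had 827, 1239, 1014 and 1003 CPM in tumor mice against 439.7, 462, 644 and 530.5 CPM in controls. The rise was 1.97-fold (log2 0.98 ± 0.18, adjusted p 0.00804), the largest of the 40, with no overlap. Tax1bp1, a receptor for ubiquitinated aggregates, had 111, 172, 140.5 and 142 CPM in tumor mice against 78.3, 86.9, 83.6 and 85.3 CPM in controls, a 1.69-fold rise (log2 0.76 ± 0.14, adjusted p 0.00803).

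Smaller rises were found for a pair of receptors whose groups overlapped in one library each. Nbr1, a partner of p62 with the same layout of domains, had 95.7, 132, 128 and 156 CPM in tumor mice against 80.3, 82.6, 92.1 and 102 CPM in controls, a 1.43-fold rise (log2 0.52 ± 0.16, adjusted p 0.0469). The call was lost without tumor 2, 3 or 4 or control 1, 2 or 3 (0.0875 to 0.137). Calcoco1, a receptor for endoplasmic reticulum and Golgi membrane, had 168, 194, 189.8 and 142 CPM in tumor mice against 99.8, 117, 108 and 147 CPM in controls, a 1.47-fold rise (log2 0.56 ± 0.16, adjusted p 0.0357). It was lost without tumor 1, 2 or 3 or control 1, 2 or 3 (0.0512 to 0.114). Optn, a receptor for ubiquitinated bacteria and mitochondria, had 109 ± 17.7 CPM in tumor mice and 87.4 ± 14.2 CPM in controls and was not called (log2 fold change 0.32 ± 0.16, adjusted p 0.190).

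Of the 4 mitophagy genes 2 (50%) rose, Bnip3 and Bnip3l, against 11.0% of all genes tested. Bnip3, an outer membrane receptor for damaged or surplus mitochondria, had 231, 425, 329 and 182 CPM in tumor mice against 143, 165, 147 and 174 CPM in controls. It rose 1.86-fold (log2 0.89 ± 0.24, adjusted p 0.0307), the tumor libraries were far more spread than the controls, and the call was lost without tumor 2 or 3 or control 1, 2 or 3 (0.0552 to 0.0955). Its paralogue Bnip3l, also called NIX, had 82.9, 93.5, 81.4 and 66.8 CPM in tumor mice against 50.1, 58.9, 54.7 and 47.8 CPM in controls, a 1.53-fold rise (log2 0.62 ± 0.13, adjusted p 0.0123, and 0.0510 without control 1). Fundc1, another outer membrane receptor, had 13.5 ± 2.82 CPM in tumor mice and 16.4 ± 1.66 CPM in controls (log2 fold change -0.28 ± 0.16, adjusted p 0.249). Pink1, the kinase that accumulates on damaged mitochondria, had 999.7 ± 126 CPM in tumor mice and 782 ± 121 CPM in controls (log2 fold change 0.35 ± 0.17, adjusted p 0.164). Neither was called by edgeR, and voom with quality weights called Pink1 higher (0.0247) and Fundc1 lower (0.0365). Differences between the 4 genes were not tested. Per kilobase of annotated exon the means of Pink1, Bnip3 and Bnip3l were 374 ± 47.2, 129 ± 47.5 and 21.03 ± 2.85 CPM per kb in tumor mice and 293 ± 45.1, 69.4 ± 6.48 and 13.7 ± 1.28 CPM per kb in controls.

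Some of these values carry reads shared with other genes. Map1lc3b, Gabarapl2, Atg4a, Bnip3 and Bnip3l had estimated counts that were not whole in all 8 libraries, Atg9a in 6 and Rb1cc1 in 4, so part of their reads was split with other transcripts and their levels are uncertain to that extent. Exons of Becn1, Uvrag, Atg4d, Gabarapl1, Sqstm1 and Bnip3 overlap a gene on the opposite strand, over 43.9%, 17.6%, 19.3%, 28.3%, 17.3% and 22.3% of their exon bases in the GENCODE M21 annotation, and those of Atg9a overlap a gene on the same strand over 31.8%. The sources used here give no strand setting for the counting, so reads of these pairs may not be fully told apart. The overlapping genes of Becn1, Uvrag, Gabarapl1 and Bnip3 had at most 0.492, 0.562, 0.516 and 0.487 CPM in any library. That of Atg9a had at most 1.255 CPM. The opposite gene of Sqstm1, Mrnip, had at most 3.96 CPM in tumor mice and 1.65 CPM in controls, and that of Atg4d, Kri1, had 13.1 to 25.2 CPM in tumor mice and 9.43 to 14.5 CPM in controls.

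Relatives of one family were next compared within each library, where scaling between libraries cancels. In all, 10 log2 ratios of counts were tested by a two-sided exact permutation test of the group labels over the 8 libraries. The smallest possible p of this test is 0.0286. None of the ratios passed after adjustment over the 10, nor had an unadjusted p under 0.05. A single ratio at that smallest p could not have passed this adjustment, so the lack of a pass does not show unchanged ratios. The nearest were Gabarap over Gabarapl2 and Sqstm1 over Nbr1. The first was 1.503, 1.90, 1.79 and 1.77 in tumor mice against 1.07, 1.21, 1.12 and 1.66 in controls, a difference of 0.48 (exact p 0.0571, adjusted p 0.286). The second was 3.11, 3.23, 2.98 and 2.69 in tumor mice against 2.45, 2.48, 2.81 and 2.38 in controls, a difference of 0.47 (exact p 0.0571, adjusted p 0.286). In each, 1 control library lay above the lowest tumor library. Map1lc3b over Map1lc3a was 0.16 ± 0.14 in tumor mice and 0.10 ± 0.20 in controls (SD, n = 4 each, exact p 0.657). Ulk1 over Ulk2 was 0.12, 0.85, 0.47 and -0.50 in tumor mice and -0.23, -0.23, -0.05 and 0.27 in controls (exact p 0.4). The other 6 ratios had differences from -0.23 to 0.62 and exact p values from 0.143 to 0.629.

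Within the groups a few libraries held most of the extreme values. Tumor 2 had the highest level of its group for 25 of the 40 genes and tumor 4 the lowest for 19, and control 4 had the highest level of its group for 20. Control 4 also had the lowest level of its group for 12 genes, as had control 1. The coefficient of variation in tumor mice ran from 4.71% for Atg4b to 36.96% for Ulk1, with a median of 14.98%. In controls it ran from 2.57% for Atg2b to 49.39% for Gabarapl1, with a median of 9.24%. Tumor 2 and control 4 were also the libraries of lowest Myh4 ratio in their groups. In adipocyte markers they stood at opposite ends of their groups. Adipoq had 76.5 CPM in tumor 2 against 3.39 to 6.39 CPM in the other tumor libraries, and 1.59 CPM in control 4, the lowest control. The part of fat content in these extremes was not tested. Gabarapl1, at 105 CPM in tumor 2 and 85.5 CPM in control 4, had its highest value of each group in tumor 2 and control 4. The same held for Wipi1, at 100.3 CPM in tumor 2 and 90.0 CPM in control 4. With the fibre ratio as a covariate 17 of the 40 genes were higher and 1 lower, against 11.7% and 9.82% of all genes in that fit; 15 of the 16 called without it were kept, and Atg2a and Gabarapl1 were gained. Without tumor 2 and control 4 together, 15 were higher and 1 lower, against 10.5% and 10.1% of all genes, and 13 of the 16 were kept.

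**Figure D4:**
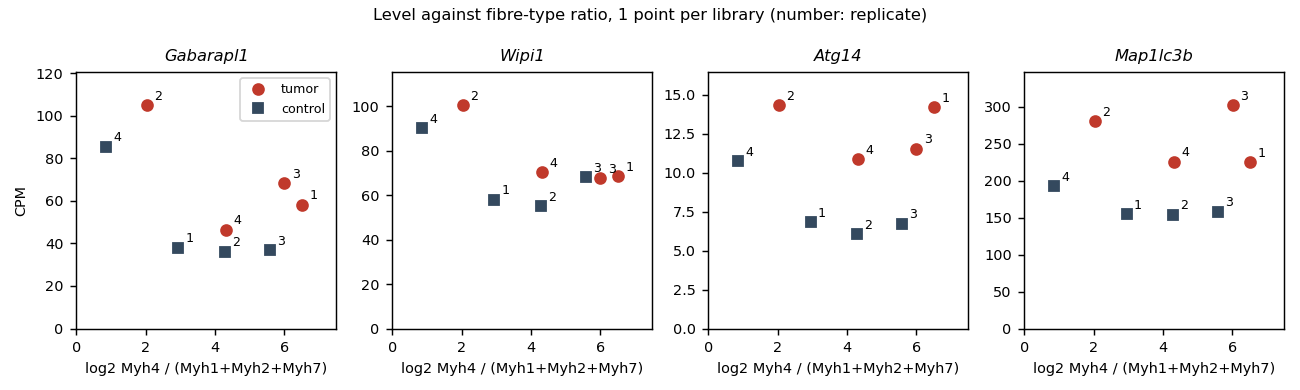
Level in CPM of Gabarapl1, Wipi1, Atg14 and Map1lc3b against the log2 ratio of Myh4 to the summed Myh1, Myh2 and Myh7, one point per library, tumor and control in separate colours. Control 4, at a ratio of 0.87, has the highest control level of all 4 genes, and tumor 2, at 2.03, has 105 CPM of Gabarapl1 and 100.3 CPM of Wipi1.

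The pathway was then followed through 65 further genes, also chosen with earlier results of these data known. Of these 64 were tested, since Calcoco2 was listed at 0 in all 8 libraries; 14 (21.9%) rose and 4 (6.25%) fell, against 11.0% and 8.73% of all genes tested, with a median log2 fold change of 0.16. The lists they fall into hold 6 to 15 tested genes each, so their counts are given as descriptions beside that background. Among 10 upstream kinases and transcription factors 4 rose. Tfeb, Tfe3 and Mitf of the TFEB family, named here after their values were seen, were not called. Their log2 fold changes were 0.50 ± 0.17, -0.01 ± 0.13 and -0.06 ± 0.21 (adjusted p 0.0634, 0.955 and 0.869, edgeR). Prkaa2, the muscle catalytic subunit of AMP-activated kinase, averaged 440 ± 56.6 CPM in tumor mice and 295 ± 34.01 CPM in controls (1.49-fold, adjusted p 0.0243). Foxo3, a driver of atrophy and autophagy genes in muscle, averaged 52.0 ± 18.7 CPM in tumor mice and 27.2 ± 5.24 CPM in controls (1.91-fold, adjusted p 0.0305), and Mtor, the kinase that restrains ULK1, averaged 73.2 ± 10.5 CPM in tumor mice and 48.5 ± 11.4 CPM in controls (1.51-fold, adjusted p 0.0420). Another that rose was Foxo1, named here after its values were seen, at 28.9, 86.3, 37.6 and 17.5 CPM in tumor mice against 17.9, 15.2, 17.97 and 18.1 CPM in controls (log2 1.30 ± 0.41, adjusted p 0.0495). Its groups overlapped, and without tumor 2 the log2 fold change was 0.66. The Foxo1 call was also lost with DESeq2 size factors (0.0511), upper-quartile scaling (0.0577) and voom (0.0955), and the Mtor call with upper-quartile scaling (0.0536). The calls were lost on leaving out 1 of 4 libraries for Prkaa2 (tumor 3, control 1, 2 or 4, adjusted p 0.0533 to 0.0868), 1 of 5 for Foxo3 (tumor 2 or 3, control 1, 2 or 3, 0.0531 to 0.0955), 1 of 6 for Mtor (tumor 2, 3 or 4, control 1, 2 or 3, 0.0679 to 0.125) and 1 of 6 for Foxo1 (tumor 2 or 3 or any control, 0.0667 to 0.118).

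Of 14 genes that control PI3P and phagophore growth 3 rose and 1 fell. Mtmr14, a phosphatase that removes PI3P, rose 1.75-fold to 33.3 ± 2.73 CPM in tumor mice against 19.1 ± 1.62 CPM in controls (adjusted p 0.00355). Trp53inp2, which binds ATG8 proteins and promotes autophagosome formation in mouse muscle, was 2.75-fold lower, at 271, 220.2, 127 and 172 CPM in tumor mice against 587, 512, 472 and 599 CPM in controls (adjusted p 0.00438). Zfyve1, a PI3P-binding marker of nascent phagophores, had 65.7, 72.9, 107 and 32.9 CPM in tumor mice against 21.4, 28.9, 29.6 and 29.7 CPM in controls (2.54-fold, adjusted p 0.0152, and 0.0573 without control 1). Trp53inp1, named after its values were seen, rose 2.13-fold (adjusted p 0.0284, lost without tumor 3 or control 1, 2 or 4 at 0.0608 to 0.0802 and with voom at 0.0519).

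Of 15 tethering and fusion genes 3 rose and 1 fell. Vps33a and Vps16, subunits of the HOPS complex that tethers autophagosomes to lysosomes, rose 1.57-fold and 1.59-fold (adjusted p 0.0130 and 0.0206). Epg5, another tether, rose 1.64-fold to 59.5 ± 13.7 CPM in tumor mice against 36.4 ± 3.59 CPM in controls (adjusted p 0.0175). The SNARE gene Vamp8, named after its values were seen, was 1.64-fold lower (adjusted p 0.0291, lost without tumor 1 or 3 or control 2 at 0.0570 to 0.0885). The Vps33a call was lost without control 1 (0.0515), the Vps16 call without tumor 3 or control 1 or 3 (0.0504 to 0.0687) and the Epg5 call without tumor 3 or control 1 or 2 (0.0507 to 0.0653).

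Of 10 tested receptors outside the 40, 3 rose: Tex264, Sec62 and Retreg1, which are known as receptors for endoplasmic reticulum. Ccpg1 and Rtn3, known for the same cargo and named after their values were seen, were not called, with log2 fold changes of 0.52 ± 0.20 and -0.39 ± 0.18 (adjusted p 0.0928 and 0.160). Tex264 rose 1.83-fold to 35.4 ± 5.07 CPM in tumor mice against 19.4 ± 1.84 CPM in controls (adjusted p 0.00421). Sec62 rose 1.55-fold (adjusted p 0.0148, lost without tumor 3 or control 1 or 2 at 0.0508 to 0.0567). Retreg1, also called FAM134B, had 301, 800.5, 443 and 168 CPM in tumor mice against 91.7, 90.2, 126 and 208 CPM in controls; the groups overlapped, and the 3.32-fold rise (adjusted p 0.0282) was lost without tumor 2 or 3 or control 1, 2 or 3 (0.0512 to 0.0902). Among 9 further mitophagy genes Mul1, a mitochondrial ubiquitin ligase, fell 1.23-fold (adjusted p 0.0451), a call kept only when the library left out was tumor 2 (0.0542 to 0.137 without any other). It was also lost with no count filter (0.153) and with the fibre ratio as a covariate, where the log2 fold change was -0.28 ± 0.10 (0.0694), against -0.30 ± 0.09 without it. Of 6 genes of chaperone-assisted routes, Lamp2, a lysosomal membrane protein, rose 1.52-fold (adjusted p 0.0198, lost without tumor 3 or control 1, 2 or 3 at 0.0502 to 0.0674). Hspa8, the chaperone that delivers single proteins to lysosomes, fell 2.40-fold and had 387, 719, 353 and 384 CPM in tumor mice against 1166, 1042, 1091 and 1128 CPM in controls (adjusted p 0.00783).

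Apart from fits that left out libraries and the replicate block, 5 of the 18 calls were lost under some other processing, those of Ambra1, Atg3, Nbr1, Wipi2 and Atg4c. Upper-quartile scaling ended the calls of Ambra1 (adjusted p 0.0922), Atg3 (0.0835) and Nbr1 (0.0683), and DESeq2 size factors that of Nbr1 (0.0524). Testing all 25972 genes with a count, with no filter, ended the calls of Ambra1 (0.120), Atg3 (0.125), Nbr1 (0.0678), Wipi2 (0.0706) and Atg4c (0.0736). The fibre ratio as a covariate ended those of Ambra1 and Atg4c, as given above. The log2 fold changes in these fits were 0.30 to 0.36 for Ambra1 against 0.37 as reported, 0.28 to 0.34 for Atg3 against 0.35, 0.44 to 0.52 for Nbr1 against 0.52, 0.40 for Wipi2 against 0.41, and -0.62 to -0.57 for Atg4c against -0.62.

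**Figure D5:**
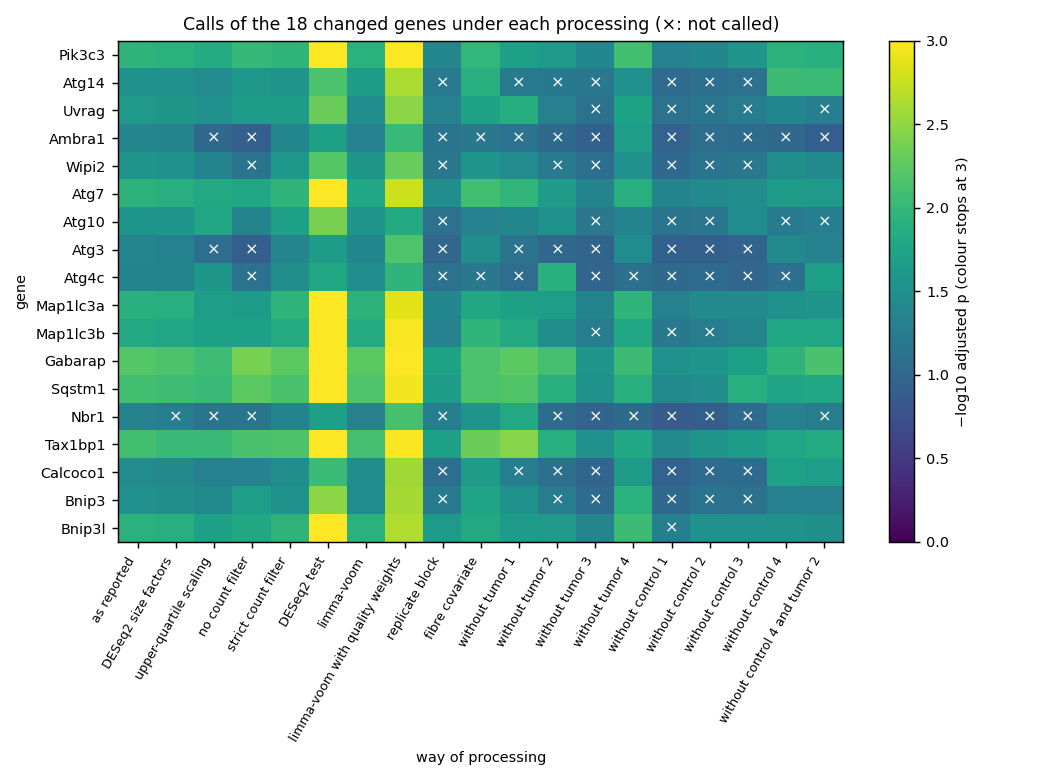
Minus log10 of the adjusted p (colour) of each of the 18 called genes, in rows, as reported and in the 18 alternative analyses, in columns, with a cross where the gene was not called. The rows of Pik3c3, Atg7, Map1lc3a, Gabarap, Sqstm1 and Tax1bp1 hold no cross, and most crosses stand in the columns that leave out tumor 3 or control 1, 2 or 3 and in that of the replicate block.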

How the data were processed

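Bulk RNA-seq of quadriceps was deposited as a table of estimated counts per gene symbol for 8 libraries. The authors' tools, per the submitters' processing notes, were Salmon 1.10.1, STAR 2.7.9a, R 4.2.2, Trim Galore 0.6.7 and cutadapt 3.4, and the build was GRCm39; the sources used here give neither their roles nor the annotation or strand setting. Of the values, 5.08% were not whole (tolerance 0.01). Reads that fit several genes had thus been shared out between them, which makes levels of near-identical genes uncertain.

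Estimated counts were rounded. Genes passing filterByExpr (minimum count 10) held 99.924% of counts and were fitted with edgeR 4.0.16 in R 4.3.3 (TMM scaling, quasi-likelihood F test, group only, two-sided, Benjamini-Hochberg over 14070 genes, threshold 0.05). The biological coefficient of variation was 30.11%. CPM values use the TMM-scaled totals, errors of fold changes are standard errors from the F statistic, and the fit was tested on simulated data. Ratios used counts plus 0.5. Exon lengths and overlaps came from GENCODE M21 and promoters from RefSeq GRCm38.p6, so no gene coordinates of the deposited build are given. Alternatives were DESeq2 size factors, upper-quartile scaling, no filter or a stricter one, DESeq2 1.42.0, limma 3.58.1 voom with and without quality weights, a replicate block, the fibre ratio as a covariate, and leaving out libraries.

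The 8 libraries differed far beyond sampling noise and were counted as 8 samples. The series' text gives 4 mice per group and names no batch or date. The p-values judge a group difference against the spread between these samples. Levels were described for all 40 genes, values in every library for called genes, for both genes of each ratio and for the 4 lowest p among the rest, and among further pathway genes for up to 3 called genes of lowest p per list. The genes and lists were chosen with earlier results of these data known.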

Additional observations from a re-analysis of the deposited data

Results flagged for a closer look

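A sample far from the other 3 of its group (by the ratio of its gap to the group's range) was found in 7 of 100 groups tested, or 7%; chance flags about 5%, or 1 in 20. Control 4 accounted for 4 of them, tumor 4 for 2 and tumor 2 for 1. Gabarapl1 was at 85.47 CPM in control 4 against 36.09 to 38.08 CPM in the other controls. The log2 ratio of Gabarapl1 to Gabarapl2 was 1.355 in control 4, against -0.287 to -0.207 in the other controls. Map1lc3b was at 192.2 CPM in control 4 against 153.8 to 158.0 CPM, and Atg14 at 10.72 CPM in control 4 against 6.054 to 6.823 CPM. Control 4 was also the library of lowest Myh4 ratio, at 0.87, and the part of fibre makeup in these 4 values was not tested gene by gene beyond the covariate fit. Ulk1 was at 62.58 CPM in tumor 4 against 156.5 to 174.7 CPM in the other tumor libraries, and Ambra1 at 28.08 CPM in tumor 4 against 34.34 to 35.31 CPM. Tumor 4 had the largest scaling factor of the 8 libraries, 1.22, and control 4 the smallest, 0.896. Wipi1 was at 100.3 CPM in tumor 2 against 67.63 to 70.19 CPM in the other tumor libraries.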

How the results depend on the processing

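The 16 genes called higher became 23 with voom quality weights (4 lower) and 9 with the replicate block (0 lower), and ran from 6 to 16 when 1 library was left out. The 2 called lower became 1 without a count filter, 1 with the fibre covariate, 1 without control 4 and tumor 2 together, and 0 to 2 when 1 library was left out. Over all genes, 2616 were higher and 2366 lower with quality weights, 1014 and 918 with the block, and 630 to 1551 higher and 480 to 1450 lower with 1 library left out. Of the other pathway genes 23 were higher and 7 lower with quality weights, and 2 to 17 higher and 2 to 7 lower with 1 library left out. Upper-quartile scaling moved the median log2 fold change of all genes to -0.07. Same-numbered libraries did not deviate together (correlations 0.03, 0.13, 0.20 and 0.02), so the numbers were not treated as pairs. The best-matching control of tumor 1 to 4 was control 3, 2, 3 and 3. Directions reversed for genes not called in those fits. Pik3r4 was at -0.044 with upper-quartile scaling, -0.105 with quality weights and -0.0744 to 0.124 with 1 library left out. With 1 library left out Ulk1 ran from -0.0676 to 0.33, Wipi1 from -0.0098 to 0.345, Atg16l1 from -0.11 to 0.0228, Atg4a from -0.135 to 0.0747 and Atg4d from -0.138 to 0.0865, and Atg4d was at 0.0666 without control 4 and tumor 2. Map1lc3b over Map1lc3a ran from -0.00297 to 0.149 and Gabarapl1 over Gabarapl2 from -0.168 to 0.579. The cause of these changes was not tested. The block also ended calls among further pathway genes, of Foxo3, Foxo1, Trp53inp1, Retreg1 and Mul1 (adjusted p 0.0563 to 0.1115). With 4 libraries per group, genes at a few CPM such as Atg10 and Atg4c rest on the lowest counts of the 40.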
